A study of Homo sapiens with 6 samples.

Results

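The genes described here are the G1 cyclins and the cyclin-dependent kinase (CDK) inhibitors of the cell cycle, 10 of the 25369 genes in the RNA-Seq files: CCND1, CCND2, CCND3, CCNE1, CCNE2, CCNA1, CDKN1A, CDKN1B, CDKN1C and CDKN2C. They were taken by gene symbol, and the rule itself uses no measured value. Poly(A) RNA was sequenced from Caki2, a clear cell renal cell carcinoma (ccRCC) line that lacks PBRM1 protein, a subunit of the PBAF chromatin remodelling complex. The control cells carried an empty lentiviral vector (Caki2+Vector, 3 replicates) and the test cells carried the same doxycycline-inducible vector with PBRM1 (Caki2+PBRM1, 3 replicates). All 6 samples also carried the doxycycline-responsive transactivator and were grown in doxycycline at 2 µg/ml for days before the experiments. Both are drug-selected stable lines of 1 parental line, so the replicates A, B and C of a group share 1 stable line, and the labels do not say whether a replicate was a separate culture. The p-values therefore measure the spread between these samples, and a difference between the groups cannot be told apart from a difference between the 2 stable lines.

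Passage from G1 into S phase is driven by D-type cyclins, which pair with CDK4 and CDK6, and by E-type and A-type cyclins, which pair with CDK2. Together these kinases phosphorylate the retinoblastoma protein and release E2F transcription factors, which switch on the genes of DNA synthesis and several of the cyclins themselves. Inhibitors act against them at the level of protein: the Cip/Kip family (p21, p27 and p57) binds several cyclin-CDK complexes, mainly those of CDK2, whereas the INK4 family, which includes p18, binds CDK4 and CDK6. The study grew these cells with and without PBRM1 and asked how PBRM1 affects their proliferation. The comparison below asks which of these transcripts differed in level between the 2 lines.

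PBRM1 itself was read first, since it checks the labels. Its normalized count (reads on the gene divided by a size factor for the library) was 182 to 195 with the empty vector and 2432 to 2682 with PBRM1, a difference of 3.76 in log2 (SE 0.056). The libraries held 7312955 to 10835355 reads on genes. Replicate A of Caki2+Vector stood apart from the others of its group, with a chi-square per degree of freedom of 3.09 and 2.84 against B and C, whereas the remaining pairs of replicates lay between 1.19 and 1.34. Calls of members that change without this library, and log2 differences of members that it moves by over 1.5 times, are given with and without it. The summed normalized count of 9 renal epithelial markers was 29933 to 30854 with the empty vector and 30542 to 31335 with PBRM1. A single gene of that list reached 17209, so the sum says little about the other markers. The list holds VIM, KRT8 and KRT18, and CA9 was too low to be tested. Of the 8 renal markers tested, 3 were higher and 2 lower in Caki2+PBRM1, with log2 differences of 0.40 for CDH16 and -0.34 for KRT18 among them, and their part in the results below was not tested. Of 9 markers of blood, endothelial, fibroblast and liver cells, 4 (CD3E, CDH5, HBB and ALB) had no read in any library. COL1A1 made up most of the rest of that list, whose sum was 76.7 to 91.6 and 69.7 to 97.8 in the 2 groups, and the gene itself had a log2 difference of 0.07 (adjusted p = 0.755 by limma). In such bulk RNA, fewer cells in a phase of the cell cycle and less RNA per cell cannot be told apart.

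Between the 2 lines, 4 of the 9 members that could be tested differed past the threshold, an adjusted p under 0.05 in limma with Benjamini-Hochberg adjustment over 13303 genes. CCNE2, CDKN1A and CDKN2C were higher in Caki2+PBRM1 and CCNA1 was lower. In the same fit 29.2% of all tested genes passed, with 16.2% higher and 13.0% lower, so that the members' count is to be read against a background in which such calls are common. DESeq2 on recovered reads called 2 of the 9, CCNA1 and CDKN1A, where it called 16.6% of all genes. Under total-count scaling 36.9% of all calls were higher, against 55.4% in the reported fit. The log2 differences of the 9 members had a median of 0.08, beside -0.004 over all tested genes. Both cyclins and inhibitors were found among the higher transcripts, and the changes were small except that of CCNA1.

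**Figure D1:**
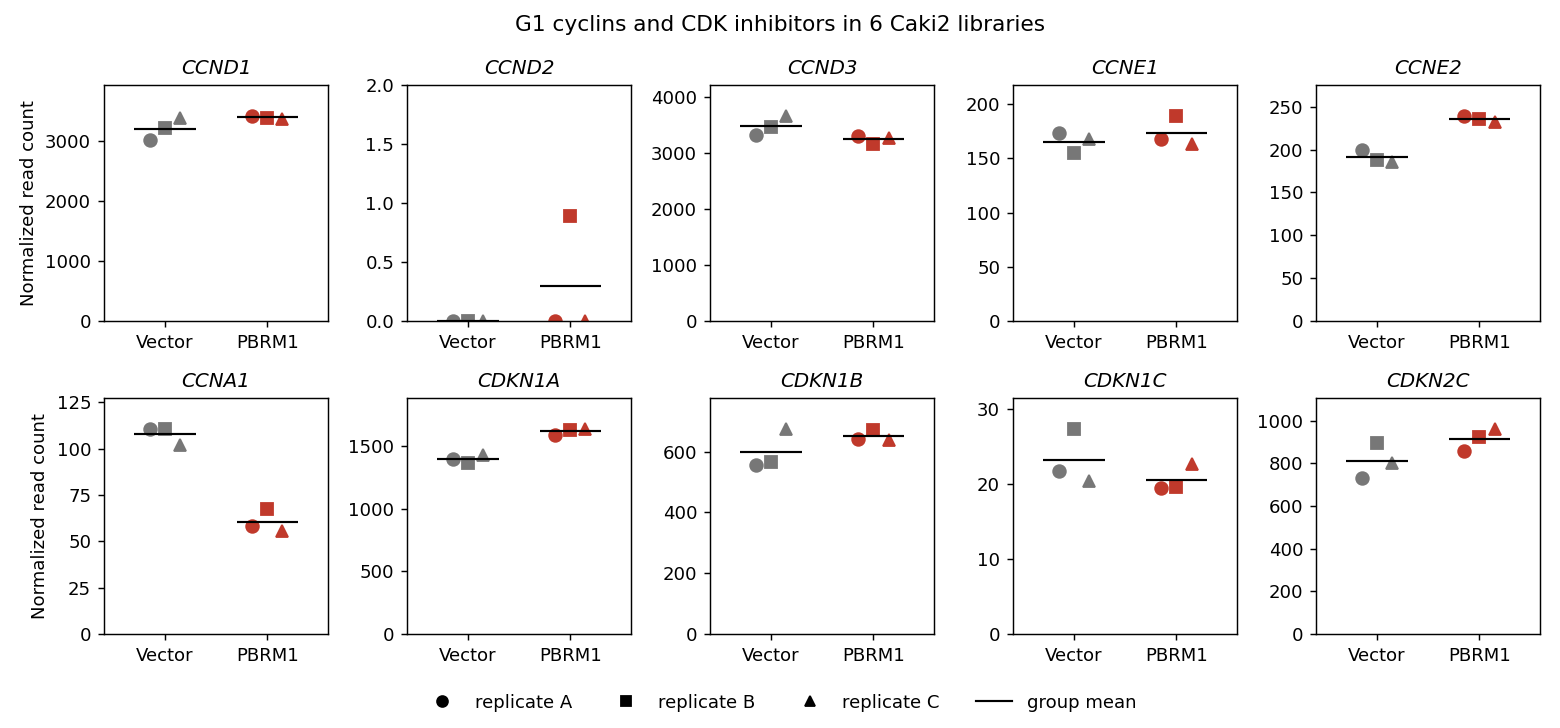
Normalized read count (vertical axis, starting at 0, a scale of its own for each gene) of the 10 genes in the 3 Caki2+Vector libraries (grey) and the 3 Caki2+PBRM1 libraries (red), with the replicate shown by the symbol and the group mean by a line. The groups are separate for CCND3, CCNE2, CCNA1 and CDKN1A and overlap for the others.

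The member with the largest difference was CCNA1, which encodes cyclin A1, a partner of CDK2 best known from male germ cells and found at low levels in somatic cells. CCNA1 (ENSG00000133101) lies at chr13:37005657-37017007 on the plus strand of GRCh37 and its main transcript has 9 exons. The study also designed a primer pair for this gene. Matched to the annotation, the forward primer lies in exon 2 (chr13:37007310-37007329) and the reverse primer in exon 3 (chr13:37011792-37011811), both in coding sequence, and the pair spans 95 bases of each of the 4 annotated transcripts. The pair is shown because it marks the stretch of the transcript that the study chose to follow.
CCNA1 forward: gctagggctgctaactgcaa
CCNA1 reverse: ggaaggcattttctgatcca

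CCNA1 had normalized counts of 110.8, 110.5 and 101.9 in Caki2+Vector A, B and C and of 58.5, 67.6 and 55.4 in Caki2+PBRM1 A, B and C. Every PBRM1 library lay well below every vector library. The means were 108 ± 5.07 (SD, n = 3) and 60.5 ± 6.32 (SD, n = 3). On the log2 scale the level fell by 0.83 (SE 0.132, 95% interval -1.10 to -0.56, adjusted p = 1.54e-05 by limma), to 0.564 of the control level. The exact permutation test of the means, two-sided, gave p = 0.1, the smallest that 3 against 3 samples allow. CCNA1 passed the threshold in all 16 alternative analyses, with a log2 difference between -0.91 and -0.77. The gene was covered by 54 to 117 reads per library, and its replicates varied no more than counting error: the coefficient of variation between Caki2+Vector replicates was 4.70%, below the 9.70% that counting alone would give.

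Cyclin A2, the A-type cyclin of most dividing cells, was far more abundant and did not pass the test. CCNA2 averaged 1269 ± 21.7 normalized counts without PBRM1 and 1284 ± 25.9 with it (SD, n = 3 each), with a log2 difference of 0.02 (adjusted p = 0.816 by limma). Per kilobase of transcript, CCNA1 made up 11.9% ± 0.333 of the A-type cyclin reads without PBRM1 and 6.95% ± 0.588 with it (SD, n = 3 each). The ratio between the A-type cyclins thus differed between the groups, without overlap, while CCNA2 gave most of their sum in both. These shares are descriptions and were not tested.

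CCND1 and CCND3 were the most abundant cyclins among the members, and no D-type cyclin passed the threshold. CCND1 (cyclin D1, chr11:69455924-69469242, plus strand of GRCh37) had normalized counts of 3019.0, 3216.0 and 3377.5 in Caki2+Vector A, B and C and of 3417.4, 3380.2 and 3366.4 in Caki2+PBRM1 A, B and C. The PBRM1 libraries were close together, and Caki2+Vector C lay among them. The log2 difference was 0.08 (SE 0.040, 95% interval -0.00017 to 0.16, adjusted p = 0.129 by limma; exact permutation p = 0.2). It was 0.0398 without Caki2+Vector A, the library that stood apart (adjusted p = 0.371), and 0.12 without Caki2+Vector C (adjusted p = 0.0299), both by limma. Quantile normalization gave 0.0542 (adjusted p = 0.343) and total-count scaling 0.0272 (adjusted p = 0.641), both by limma.

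CCND3 (cyclin D3, chr6:41902672-42018095, minus strand of GRCh37) had normalized counts of 3321.9, 3458.8 and 3658.0 in Caki2+Vector A, B and C and of 3297.2, 3159.8 and 3261.5 in Caki2+PBRM1 A, B and C. The groups did not overlap, but Caki2+Vector A came within a narrow margin of Caki2+PBRM1 A. The means were 3480 ± 169 and 3239 ± 71.3 (SD, n = 3 each). The log2 difference was -0.10 (SE 0.040, 95% interval -0.18 to -0.02) and its adjusted p of 0.0513 by limma missed the threshold (exact permutation p = 0.1). This call depended on single libraries and on scaling: without Caki2+Vector A, the library that stood apart, the difference was -0.14 with an adjusted p of 6.82e-04 by limma, and 4 of the alternatives in scaling or blocking also took it past the threshold.

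Since CCND1 and CCND3 differed in opposite directions, their balance was computed per kilobase of the main transcript. CCND1 made up 30.3%, 30.8% and 30.6% of the D-type cyclin reads per kilobase in Caki2+Vector A, B and C and 33.1%, 33.8% and 33.0% in Caki2+PBRM1 A, B and C. The share was higher in each PBRM1 library than in any vector library, and it does not depend on the size factors. With the union of all annotated exons as the length the means were 52.7% and 55.9%, so the balance between the cyclins depends on the length used whereas the direction of the difference does not. As for the A-type cyclins, this ratio was not tested. It was computed after the values of CCND1 and CCND3 had been seen, and neither gene passed the test by itself.

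CCND2 (cyclin D2, chr12:4378937-4414519, plus strand of GRCh37) was not detected beyond a single read. It had 0 reads among 25831437 in Caki2+Vector, which allows up to 0.116 reads in every 1000000 (3 counts over the group), and 1 read among 29471599 in Caki2+PBRM1, in replicate B. The exact Poisson interval of that 1 read is 0.0253 to 5.57 reads. Intervals and floors of this kind cover counting error only. CCND2 stayed below the filter, so it is the member that was not tested.

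Of the E-type cyclins, which activate CDK2 late in G1, CCNE2 rose and CCNE1 did not pass the test. CCNE2 (cyclin E2, chr8:95891998-95908906, minus strand of GRCh37) had normalized counts of 199.8, 188.0 and 185.8 in Caki2+Vector A, B and C and of 239.4, 235.5 and 231.6 in Caki2+PBRM1 A, B and C. The groups were clearly separate, and replicates within a group were close. The means were 191 ± 7.51 and 236 ± 3.87 (SD, n = 3 each), a 1.23-fold difference, or 0.30 in log2 (SE 0.084, 95% interval 0.13 to 0.47, adjusted p = 0.00711 by limma; exact permutation p = 0.1). It passed in 15 of the 16 alternatives. DESeq2 on recovered reads gave the same difference with an adjusted p of 0.0766.

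The exons of CCNE2 share 1522 bases with INTS8, a subunit gene of the Integrator complex on the opposite strand. The sources used here do not say that the libraries kept the strand, so reads of the shared stretch may belong to either gene. INTS8 averaged 475 ± 22.9 normalized counts without PBRM1 and 467 ± 26.6 with it (SD, n = 3 each), with a log2 difference of -0.02 (adjusted p = 0.822 by limma).

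CCNE1 (cyclin E1, chr19:30302898-30315219, plus strand of GRCh37) had normalized counts of 173.2, 154.9 and 167.8 in Caki2+Vector A, B and C and of 167.9, 189.3 and 162.8 in Caki2+PBRM1 A, B and C. The groups overlapped, with only Caki2+PBRM1 B above the vector libraries. The log2 difference was 0.07 (95% interval -0.13 to 0.26, adjusted p = 0.654 by limma; exact permutation p = 0.5). It was 0.10 without Caki2+Vector A and 0.00165 without Caki2+PBRM1 B (adjusted p = 0.498 and 0.994 by limma). The 95% interval from all 6 samples overlaps that of CCNE2, and the difference between the E-type cyclins was not tested. Per kilobase, CCNE2 made up 45.8% ± 1.14 of the E-type reads without PBRM1 and 49.9% ± 1.95 with it (SD, n = 3 each). With the union of exons as the length these means were 39.3% and 43.3%. Both lengths include the 1522 bases that CCNE2 shares with INTS8. How reads there were counted is not known, so the level of CCNE2 beside that of CCNE1 is uncertain.

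**Figure D2:**
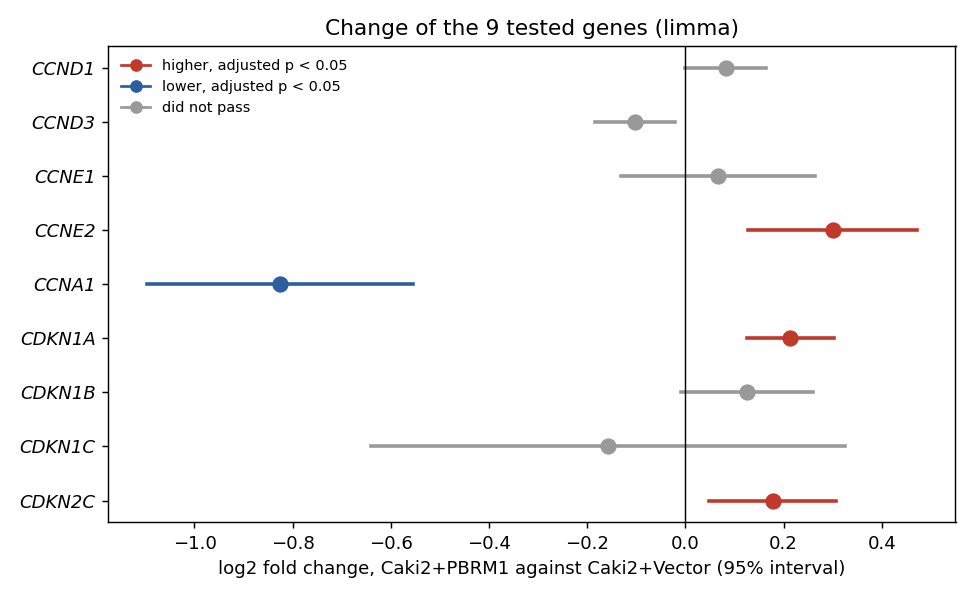
Log2 fold change of the 9 tested genes, Caki2+PBRM1 against Caki2+Vector (horizontal axis), as points with 95% intervals from limma, red for higher, blue for lower and grey where the adjusted p was not under 0.05. CCNA1 at -0.83 lies far from the rest, which run from -0.16 to 0.30.

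The Cip/Kip inhibitors differed among themselves. CDKN1A encodes p21, an inhibitor of cyclin-CDK complexes that is induced in many kinds of growth arrest, and lies at chr6:36644237-36655114 on the plus strand of GRCh37. It had normalized counts of 1394.5, 1366.1 and 1431.1 in Caki2+Vector A, B and C and of 1590.1, 1630.1 and 1640.0 in Caki2+PBRM1 A, B and C. All PBRM1 libraries were above all vector libraries, by several times the spread within a group. The means were 1397 ± 32.6 and 1620 ± 26.4 (SD, n = 3 each), a 1.16-fold rise, or 0.21 in log2 (SE 0.043, 95% interval 0.12 to 0.30, adjusted p = 3.41e-04 by limma; exact permutation p = 0.1). CDKN1A passed the threshold in all 16 alternatives, with a largest adjusted p of 0.00581 by limma. With 1194 to 1954 reads per library the replicates varied no more than counting alone would give, with a coefficient of variation of 2.33% against 2.70% in Caki2+Vector.

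CDKN1B encodes p27, which holds cyclin E-CDK2 inactive in quiescent cells (chr12:12838432-12875303, plus strand of GRCh37). It had normalized counts of 555.7, 565.0 and 676.0 in Caki2+Vector A, B and C and of 642.3, 672.8 and 637.9 in Caki2+PBRM1 A, B and C. Caki2+Vector C was as high as the PBRM1 libraries, whereas the other vector libraries lay below them. The log2 difference was 0.13 (SE 0.065, 95% interval -0.01 to 0.26, adjusted p = 0.157 by limma; exact permutation p = 0.4). It was 0.0746 without Caki2+Vector A, the library that stood apart (adjusted p = 0.361), 0.0865 without Caki2+Vector B (adjusted p = 0.416) and 0.22 without Caki2+Vector C (adjusted p = 0.0112), all by limma. Total-count scaling gave 0.0709 (adjusted p = 0.432 by limma). The coefficient of variation between the vector replicates was 11.2%, where counting alone would give 4.14%, so these replicates varied by more than counting error.

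CDKN1C encodes p57 and is an imprinted gene (chr11:2904443-2907005, minus strand of GRCh37), and was the least abundant of the tested members. It had normalized counts of 21.8, 27.4 and 20.4 in Caki2+Vector A, B and C and of 19.5, 19.6 and 22.7 in Caki2+PBRM1 A, B and C. The groups overlapped, and 17 to 29 reads per library leave a wide interval. The log2 difference was -0.16 (95% interval -0.64 to 0.33, adjusted p = 0.668 by limma; exact permutation p = 0.5), so a difference as large as that of CDKN1A, in either direction, was not detectable at this depth. Per kilobase, CDKN1A made up 71.7% ± 1.65 of the Cip/Kip reads without PBRM1 and 73.1% ± 0.505 with it (SD, n = 3 each). The groups overlapped in that share.

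CDKN2C encodes p18, an INK4 inhibitor of CDK4 and CDK6 (chr1:51426417-51440306, plus strand of GRCh37). It had normalized counts of 732.7, 897.5 and 801.8 in Caki2+Vector A, B and C and of 859.0, 923.5 and 962.7 in Caki2+PBRM1 A, B and C. Caki2+Vector B lay above Caki2+PBRM1 A, so the groups overlapped. The means were 811 ± 82.8 and 915 ± 52.4 (SD, n = 3 each), 1.13-fold or 0.18 in log2 (SE 0.063, 95% interval 0.05 to 0.31, adjusted p = 0.0357 by limma; exact permutation p = 0.2). The call was lost in 6 of the 16 alternatives. Without Caki2+Vector A the difference was 0.11 with an adjusted p of 0.106, and without Caki2+Vector C, Caki2+PBRM1 B or Caki2+PBRM1 C the adjusted p was 0.0792, 0.112 and 0.177, all by limma.

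The other INK4 genes were low or had no reads. CDKN2A and CDKN2B, the neighbouring genes of p16 and p15, had no read among the 55303036 of the 6 libraries, which allows up to 0.0542 reads in every 1000000 for each. CDKN2D, which encodes p19, averaged 37.8 ± 2.97 normalized counts without PBRM1 and 31.0 ± 5.42 with it (SD, n = 3 each), with a log2 difference of -0.29 (adjusted p = 0.295 by limma). These genes were named after their values had been seen. Of the 4 INK4 genes, CDKN2C thus held most of the reads in both groups.

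**Figure D3:**
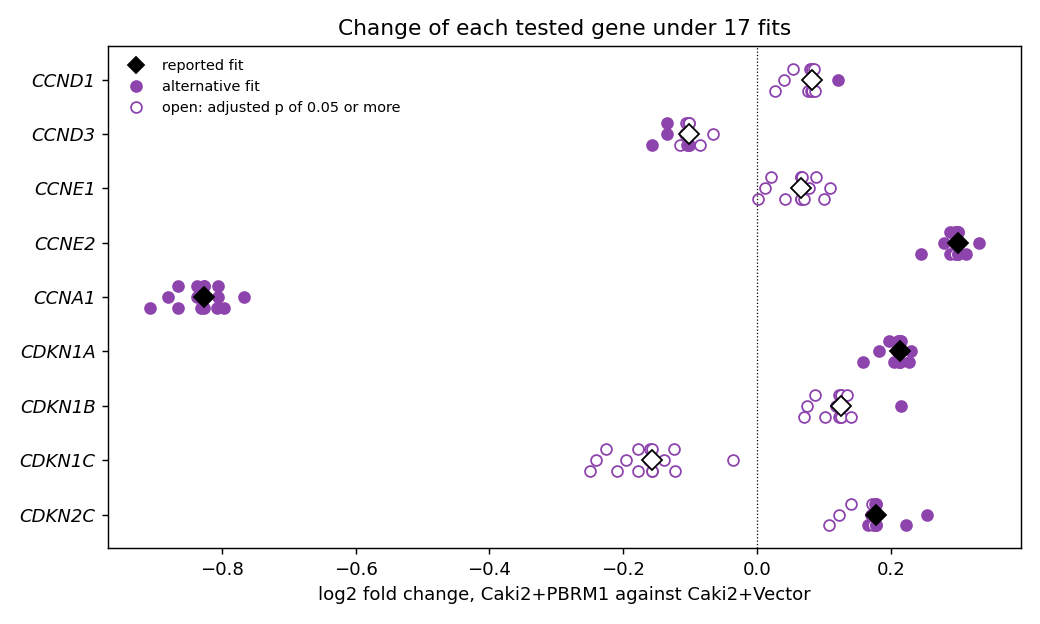
Log2 fold change of each tested gene, Caki2+PBRM1 against Caki2+Vector (horizontal axis), in the reported fit (diamond) and in the 16 alternative analyses (circles), filled where the adjusted p was under 0.05. CCNA1 and CDKN1A are filled throughout and CCNE2 in all but 1 alternative. CDKN2C, CCND3, CCND1 and CDKN1B are filled in some fits and open in others.

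Groups that do not overlap were found for 4 of the 9 tested members, CCNE2 and CDKN1A higher and CCNA1 and CCND3 lower. Over all tested genes the share without overlap was 41.7%, with 22.1% higher and 19.6% lower. CCNA1 and CDKN1A are the members that passed under every alternative, in opposite directions, and for that reason the 250 bases before the annotated start of each are given, from RefSeq on GRCh38.p14. Promoter sequences were matched for 6 of the 10 members. Capitals in them mark the letters GGGCGG read on either strand, a GC box of the kind that Sp family factors bind.

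The window of CCNA1 is chr13:36431705-36431954 on the plus strand and that of CDKN1A is chr6:36678464-36678713 on the plus strand.
CCNA1: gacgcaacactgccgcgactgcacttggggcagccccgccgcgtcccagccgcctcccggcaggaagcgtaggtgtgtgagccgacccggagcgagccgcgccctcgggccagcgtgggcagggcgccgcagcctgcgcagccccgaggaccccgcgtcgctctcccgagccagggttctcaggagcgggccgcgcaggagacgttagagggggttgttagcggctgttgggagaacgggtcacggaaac
CDKN1A: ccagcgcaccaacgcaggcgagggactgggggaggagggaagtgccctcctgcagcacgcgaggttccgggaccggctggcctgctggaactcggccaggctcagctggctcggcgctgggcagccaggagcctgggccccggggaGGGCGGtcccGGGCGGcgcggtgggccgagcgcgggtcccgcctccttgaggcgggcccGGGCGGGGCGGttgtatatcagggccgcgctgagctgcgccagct

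Both windows are rich in G and C (72.8% for CCNA1 and 76.4% for CDKN1A). The CDKN1A window holds 4 matches to GGGCGG, of which the last pair overlap, and the CCNA1 window holds 0. Over the same 250 bases of all 35116 promoters in the table, 42.6% hold at least 1 match. Neither window holds an E2F word (TTTCCCGC, TTTCGCGC, TTTGCCGC or TTTGGCGC, found in 2.79% of promoters) or the CHR letters TTTGAA (found in 13.3%). A match or its absence describes these letters in this window only. The GC box was added to the search after the windows had been read. Among the other members with a promoter, no window holds an E2F word or the CHR letters either. In these members GGGCGG had 7 matches for CCNE1 and 1 for CDKN1B. Matches numbered 5, 2 and 0 in the windows of CCND3, and 0, 5 and 1 in those of CDKN2C. A link of GGGCGG matches to the direction of change was not tested.

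Levels were compared between genes per kilobase of the main transcript. In Caki2+Vector the order of mean normalized counts per kilobase was CCND3 (1717), CDKN2C (815), CCND1 (756), CDKN1A (660), CDKN1B (248), CCNE1 (84.6), CCNE2 (71.5), CCNA1 (62.3), CDKN1C (13.1) and CCND2 (0). In Caki2+PBRM1 the values were 1599 for CCND3, 920 for CDKN2C, 799 for CCND1, 765 for CDKN1A, 270 for CDKN1B, 88.7 for CCNE1, 88.1 for CCNE2, 35.0 for CCNA1, 11.6 for CDKN1C and 0.0456 for CCND2. By this length the order was the same in both groups. However, CCNE1 and CCNE2 came level in Caki2+PBRM1, and the spreads of CDKN2C and CCND1 touch in Caki2+Vector. The place of CCNE2 also depends on how reads in the stretch shared with INTS8 were counted, which is not known. With the union of all exons as the length CCND1 (673) came before CCND3 (604) and CDKN1A (466) before CDKN2C (269) in Caki2+Vector. By that length CCNE1 (67.2) also came before CDKN1B (64.7) and CCNA1 (47.9) before CCNE2 (43.5) in Caki2+Vector. In Caki2+PBRM1 CCNE1 (70.4) and CDKN1B (70.3) were level, and CCNE2 (53.6) came before CCNA1 (26.9). By the union of exons the order thus differed between the groups. The order of these genes thus rests on the choice of length. E-type cyclins, CCNA1 and CDKN1C were low by either length, and CDKN1B was as low as CCNE1 by the union of exons only.

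The genes around these members were read from 8 lists that cover the partner kinases, INK4 genes, pocket proteins and E2F factors, turnover and activation, upstream factors, S-phase genes, mitotic genes and other cyclins. Of 64 tested genes among 66, 12 (18.8%) were higher, 8 (12.5%) were lower and 44 did not pass, beside 16.2% and 13.0% of all tested genes. Their median log2 difference was -0.02. Of the genes named below that limma called, DESeq2 on recovered reads did not call 8, CDK2, E2F6, E2F8, AMBRA1, FOXO3, TYMS, CCNB1 and MKI67, with adjusted p from 0.0554 for CCNB1 to 0.180 for FOXO3. In all, DESeq2 called 7 of the list genes, 5 higher and 2 lower, where it called 9.85% of all genes higher and 6.79% lower. In the reported limma fit, the shares called over the 8 lists together were near those of the background in both directions.

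Of the partner kinases, CDK2 rose and those of the D-type cyclins did not pass the test. CDK2 averaged 920 ± 26.2 normalized counts without PBRM1 and 1017 ± 18.5 with it (SD, n = 3 each), a log2 difference of 0.15 (SE 0.049, adjusted p = 0.0242 by limma). It lost the call without any 1 of the PBRM1 replicates (adjusted p = 0.0656 without A, 0.117 without B and 0.0596 without C). The call was also lost with total-count scaling (log2 difference 0.091, adjusted p = 0.159) and quantile normalization (0.126, adjusted p = 0.0502), both by limma. CDK4 had a log2 difference of -0.02 (adjusted p = 0.680) and CDK6 one of 0.08 (adjusted p = 0.282), both by limma. CDK6 passed in 1 of the 6 fits that left out a library. That was the fit without Caki2+Vector C, at 0.15 (adjusted p = 0.0268 by limma).

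Among 13 pocket proteins and E2F or DP factors, 2 were higher and 3 lower. RBL2, the pocket protein p130 of quiescent cells, rose from 346 ± 3.74 to 417 ± 12.9 (normalized count, SD, n = 3 each; log2 difference 0.27, adjusted p = 0.00272 by limma) and kept the call without any 1 library. E2F8, an E2F repressor made in S phase, fell by 0.36 in log2 (adjusted p = 0.0149 by limma), but its adjusted p was 0.0875 without Caki2+Vector C, 0.0555 without Caki2+PBRM1 A and 0.0518 without Caki2+PBRM1 B. E2F6, a repressor of the same family, fell by 0.24 (adjusted p = 0.0156 by limma, and 0.0669 without Caki2+PBRM1 C).

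Among 10 genes of turnover and activation of G1 cyclin-CDK complexes, AMBRA1 alone passed the threshold. It encodes a substrate receptor through which D-type cyclins are degraded, and its log2 level fell by 0.21 (adjusted p = 0.0399 by limma). The call was lost without Caki2+Vector B or C or Caki2+PBRM1 B or C, at adjusted p of 0.0555, 0.0973, 0.120 and 0.184. Of 7 upstream factors, MYC, which drives several of these cyclins, fell from 1165 ± 56.8 to 945 ± 24.5 (normalized count, SD, n = 3 each; log2 difference -0.30, SE 0.050, adjusted p = 2.30e-05 by limma). FOXO3, a factor that can switch on CDKN1B, had a log2 difference of 0.17 (adjusted p = 0.0430 by limma), lost without Caki2+Vector B or any PBRM1 replicate (0.0767 to 0.157). MDM2, looked up after the value of CDKN1A had been seen, had a log2 difference of -0.02 (adjusted p = 0.748 by limma).

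S-phase genes that respond to E2F moved both ways, with 3 of 12 higher and 2 lower. PCNA, the sliding clamp of DNA polymerase, fell from 2592 ± 217 to 2173 ± 35.7 (normalized count, SD, n = 3 each; log2 difference -0.25, adjusted p = 1.66e-04 by limma). RRM2, the regulated subunit of ribonucleotide reductase, rose from 2013 ± 46.9 to 2271 ± 13.7 (log2 difference 0.17, adjusted p = 0.00123 by limma). Both calls held without any 1 library. TYMS, thymidylate synthase, fell by 0.23 (adjusted p = 0.0184 by limma, and 0.0746 without Caki2+Vector B or 0.131 without Caki2+PBRM1 C).

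The 4 mitotic genes likewise split. CCNB1, the mitotic cyclin B1, fell by 0.13 in log2 (adjusted p = 0.0208 by limma), and MKI67, the proliferation marker, had a log2 difference of 0.09 (adjusted p = 0.0462). Each lost the call without several of the libraries. CCNB1 had adjusted p of 0.0585, 0.0932 and 0.127 without Caki2+Vector B, Caki2+PBRM1 B and Caki2+PBRM1 C. MKI67 had adjusted p of 0.133, 0.231, 0.102 and 0.109 without Caki2+Vector C and Caki2+PBRM1 A, B and C. MKI67 was also not called by edgeR (adjusted p = 0.0602), and in limma it lost the call without a filter (0.0578), with median-ratio size factors (0.0529), with quantile normalization (log2 difference 0.0529, adjusted p = 0.285) and with total-count scaling (log2 difference 0.0390, adjusted p = 0.429).

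Of 13 genes of other cyclin families, 4 (30.8%) were higher and 0 lower in limma, beside 16.2% and 13.0% of all tested genes. CCNG2, cyclin G2, known from arrested cells, rose from 329 ± 32.5 to 412 ± 22.8 (normalized count, SD, n = 3 each; log2 difference 0.33, adjusted p = 0.00145 by limma). CCNY, a membrane-bound cyclin, rose by 0.26 in log2 (adjusted p = 0.00183), and CCNC, a Mediator cyclin, by 0.21 (adjusted p = 0.00837), both by limma. CCNC lost the call without Caki2+Vector B (0.0689) or Caki2+PBRM1 C (0.0750). CCNG2 and CCNY kept it whichever library was left out. The remaining higher gene, with a smaller difference, lost the call without several of the libraries, in DESeq2 and under total-count scaling.

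**Figure D4:**
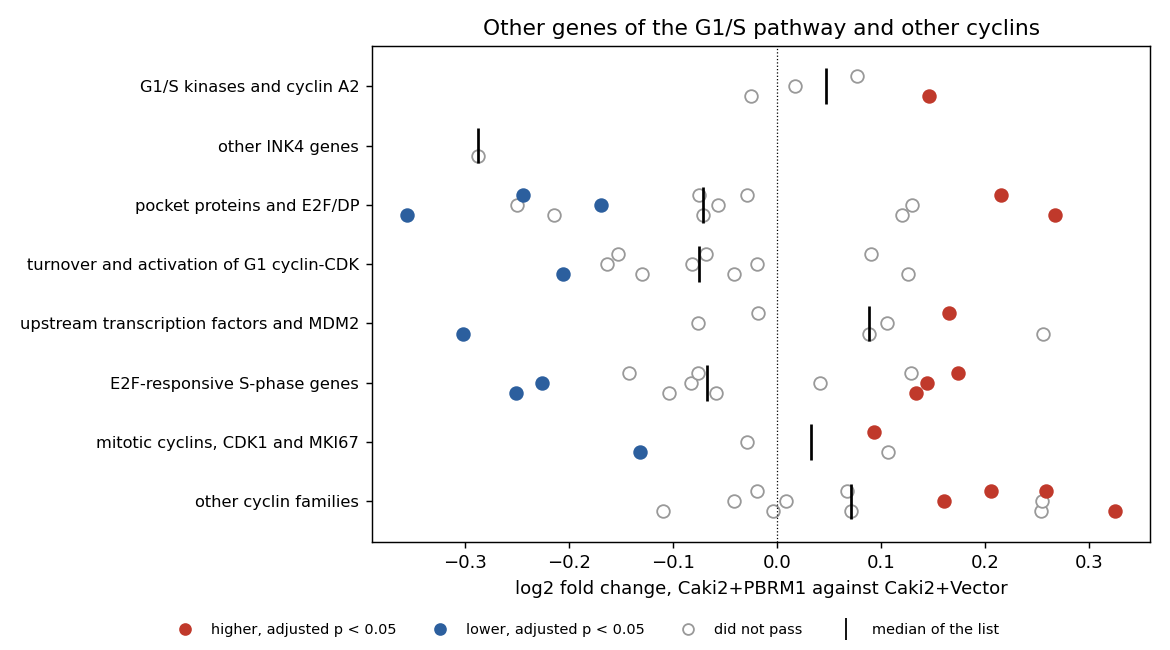
Log2 fold change, Caki2+PBRM1 against Caki2+Vector (horizontal axis), of each tested gene of the 8 lists (rows), filled red for higher and blue for lower at an adjusted p under 0.05 by limma and open where the test was not passed, with each list's median as a line. All values lie between -0.36 and 0.33, and filled points of both colours occur in the pocket protein, upstream, S-phase and mitotic lists.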

How the data were processed

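Poly(A) RNA of 3 Caki2+Vector and 3 Caki2+PBRM1 samples was sequenced as paired ends. Groups and replicate letters came from the sample labels. The authors removed adapters, poor reads and rRNA reads, aligned to hg19 with STAR, counted reads on UCSC genes with htseq-count and normalized them with DESeq2. The deposited values are a signal, normalized counts per gene without division by length: every value was a whole number of reads (within 0.01 of a read) divided by a size factor of the sample, from 0.834 to 1.191. Strand use in counting is not given in the sources used here.

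A gene was tested where 3 or more samples reached a normalized count of 10 (13303 genes). The test was limma 3.58.1 (R 4.3.3) on log2(normalized count + 1), with a trend, robust moderation and no covariate. The threshold was an adjusted p under 0.05 (Benjamini-Hochberg over all tested genes), and fold changes are on this log2 scale, which understates changes of low genes. CCND2 was left untested by the filter. Single genes also had an exact permutation test, two-sided, of mean normalized counts over the 20 regroupings. Intervals are at 95%. The libraries held 7312955 to 10835355 reads on genes, which gave log2 fold changes a median SE of 0.083.

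Recovered whole reads gave the depth and were tested with edgeR 4.0.16 (quasi-likelihood, TMM) and DESeq2 1.42.0 as alternatives: 100% of the values came out whole, and edgeR called 4002 genes (30.1%) and DESeq2 2425 of 14575 (16.6%). Other alternatives were median-ratio size factors, quantile normalization, pseudocounts of 0.5 and 4, no filter, a filter that each sample must pass, a block on the letter of the replicate, leaving out each replicate, an adjusted p under 0.01 and, chosen after seeing the data, total-count scaling. The scripts were tested on simulated data. Replicates were compared by chi-square on genes that held 20 or more reads between them, and none were duplicates.

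The members and the gene lists were chosen with earlier results of these data known. Named genes are the members, PBRM1, CDK2, CDK4, CDK6, CCNA2 and up to 3 called genes of each other list with the largest difference, and genes outside this rule are said to be so. A-type and E-type shares were added after seeing the data. INTS8 was named because it overlaps CCNE2. Exons of CCND1 also share at least 253 bases with a gene on the opposite strand. Those of CCND2 share at least 474 bases with a gene on the same strand and 162 with one on the opposite strand. How reads in these stretches were counted is not known. Positions and lengths come from GENCODE on GRCh37 by symbol (main transcript, or the union of exons where stated), and promoters from RefSeq on GRCh38.p14. The study's primers were matched to the GRCh37 transcripts by exact sequence. Other tools were Python 3.11.15, numpy 2.4.6, pandas 2.3.3, scipy 1.17.1 and matplotlib 3.10.9. Some genes of the lists are not reported here by name.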

Additional observations from a re-analysis of the deposited data

How the results depend on the processing

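No log2 difference of a member changed direction under any alternative, and CCNA1 and CDKN1A passed in each. Other calls changed. DESeq2 on whole reads called 2425 genes (16.6% of all tested, 989 lower). It called 2 members (1 higher) and 7 list genes (5 higher and 2 lower). DESeq2 put CCNE2 at 0.30 (adjusted p = 0.0766) and CDKN2C at 0.17 (adjusted p = 0.109). At an adjusted p under 0.01, limma called 2521 genes, 1025 of them lower. Total-count scaling called 2775 lower genes (20.9% of all tested, beside 12.2% higher), with 5 higher and 14 lower list genes. It moved the median of all genes to -0.06, with CCND3 at -0.16 and CDKN2C at 0.12 (adjusted p = 0.125 by limma). CCND3 passed at -0.10 with median-ratio size factors, at -0.13 with quantile normalization and at -0.10 with the replicate block. Thus 2 members were lower under each of these and under total-count scaling, where 13.4% to 20.9% of all tested genes were lower. The cause was not tested.

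Leaving out 1 library at a time gave 1 to 2 lower members (2 without Caki2+Vector A), 7 to 26 list genes, 4 to 13 higher and 3 to 13 lower, where the full data gave 20, 12 and 8. Over all tested genes these fits called 21.3% (without Caki2+PBRM1 C) to 31.5% (without Caki2+Vector A), beside 29.2% in the full data. The higher share ran from 12.1% to 17.1% and the lower share from 9.12% to 14.4%. The counts of list genes were 13 without Caki2+Vector B and 12, 9 and 7 without Caki2+PBRM1 A, B and C, and 13 list genes were lower without Caki2+Vector A. The log2 differences ran from 0.0398 to 0.12 for CCND1, -0.14 to -0.0656 for CCND3, 0.0746 to 0.22 for CDKN1B, 0.11 to 0.25 for CDKN2C, 0.00165 to 0.11 for CCNE1 and -0.24 to -0.0359 for CDKN1C.

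With the replicate block 4107 genes passed (2249 higher, 1858 lower). Deviations of samples with the same letter correlated at -0.008 to 0.014 over the 3 pairs and those with different letters at -0.024 to 0.017, so the letters were not taken to pair the samples. Depth limits CDKN1C, for which a change as small as that of CDKN1A was not detectable, and CCND2, which could not be tested.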
